A study of Mus musculus with 13 samples.

Results

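The regions described here are those that the deposited table names Enh near a transcription start site (TSS), on autosomes and longer than 160 bases. There were 11014 such regions among the 240814 regions of the table. Each region was taken by its class name, chromosome and length, and not by its KAT7 or H3K14ac value. Of 16590 Enh regions near a TSS, 5283 measured exactly 151 bases and were left out by the length rule, and 293 of the longer ones lay on X or Y. The longest region left out by length had 151 bases and the shortest one kept had 211 bases. Just outside the rule, the 5176 autosomal regions of 151 bases had a KAT7 level of 0.619 (0.615 to 0.624) and an H3K14ac level of 0.463 (0.459 to 0.467), and just inside it the 10 shortest regions kept, of 211 to 251 bases, had 0.492 (0.416 to 0.577) and 0.524 (0.448 to 0.610). All levels here are RPKM, reads scaled to region length and column total, with a 95% interval in parentheses. Of the 11014 regions, 2 were set aside for values below 0.1 or above 5 RPKM, and the 11012 used shared no base with each other. Their lengths ran to 45032 bases with a median of 1318, and 9371 genes were the nearest gene of at least 1 of them. What the name Enh stands for is not spelled out in the labels or the table.

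The values came from chromatin immunoprecipitation and sequencing (ChIP-seq) of neural stem and progenitor cells, which grow as neurospheres, floating colonies, and came from the embryonic cortex and ganglionic eminences at E14.5. Cells were collected on day 3 of passage 5. The labels list KAT7 libraries from 1 isolate of Kat7-deleted cells (Kat7 lox/lox with the NesCre transgene) and from 3 isolates of Kat7-intact cells (Kat7 +/+ with the same transgene), H3K14ac libraries from 3 Kat7-deleted and 4 Kat7-intact isolates, and 1 IgG library for each experiment. All of these cells carried NesCre, whose recombinase removes the floxed Kat7 alleles in cells that express it. The table gives 1 merged KAT7 column and 1 merged H3K14ac column, and the sources used here do not give which libraries and genotypes entered each. The genotypes are therefore not compared, IgG reads are not subtracted, and every interval covers counting error only, without replicates behind it. The column names hold the letters gc, which the labels do not explain. Whether the reads were corrected for GC content is therefore unknown, and such a correction would bear on every comparison by CpG overlap or CG number.

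KAT7, also called HBO1, is a lysine acetyltransferase of the MYST family that works in complexes with a BRPF or JADE scaffold, an ING subunit that reads methylated histone H3, and MEAF6. Acetylation of lysine 14 of histone H3 (H3K14ac) is one of its products and is found at promoters and enhancers of active genes. CpG islands are stretches rich in unmethylated CG dinucleotides that cover many promoters, above all those of widely expressed genes. Nucleosomes just after the start of an active gene usually carry much histone acetylation, and the start itself is often depleted of nucleosomes.

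The promoter sequences of 4 regions are shown because these regions stand at different corners of the data. The region at Nes, the gene of nestin, an intermediate filament that marks neural progenitors, was high in both columns. The region at Fabp7, a fatty acid binding protein gene of radial glia, overlapped no CpG region although the gene is in the highest expression class. The regions at Prkaca, which encodes a catalytic subunit of protein kinase A, and at Cirbp, which encodes a cold-inducible RNA-binding protein, were skewed to KAT7 and to H3K14ac. The sequences are RefSeq windows of assembly GRCm38.p6 that run from 250 bases before the start to 50 bases after it, 5′ to 3′, all on the + strand, and capitals mark each CG dinucleotide. Their positions are chr3:87970843-87971142 for Nes, chr10:57784673-57784972 for Fabp7, chr8:83972728-83973027 for Prkaca and chr10:80167589-80167888 for Cirbp.
Nes: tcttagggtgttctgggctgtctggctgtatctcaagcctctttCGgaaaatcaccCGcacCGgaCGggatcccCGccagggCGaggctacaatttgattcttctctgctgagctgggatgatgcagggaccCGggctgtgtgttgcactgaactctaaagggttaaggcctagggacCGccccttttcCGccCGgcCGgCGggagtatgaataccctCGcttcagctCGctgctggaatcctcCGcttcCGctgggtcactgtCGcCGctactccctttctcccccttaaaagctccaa
Fabp7: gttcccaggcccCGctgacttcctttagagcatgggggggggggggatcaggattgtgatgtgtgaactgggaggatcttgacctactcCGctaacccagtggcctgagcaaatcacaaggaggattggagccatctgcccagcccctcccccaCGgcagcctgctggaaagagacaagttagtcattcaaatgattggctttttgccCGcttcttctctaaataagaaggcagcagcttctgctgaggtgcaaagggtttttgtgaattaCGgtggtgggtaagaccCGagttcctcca
Prkaca: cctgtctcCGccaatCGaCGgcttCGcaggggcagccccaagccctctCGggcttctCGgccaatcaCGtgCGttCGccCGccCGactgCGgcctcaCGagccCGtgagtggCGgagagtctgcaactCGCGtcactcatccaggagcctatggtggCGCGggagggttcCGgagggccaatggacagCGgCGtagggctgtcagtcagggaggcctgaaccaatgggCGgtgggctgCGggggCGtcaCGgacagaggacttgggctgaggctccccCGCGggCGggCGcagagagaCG
Cirbp: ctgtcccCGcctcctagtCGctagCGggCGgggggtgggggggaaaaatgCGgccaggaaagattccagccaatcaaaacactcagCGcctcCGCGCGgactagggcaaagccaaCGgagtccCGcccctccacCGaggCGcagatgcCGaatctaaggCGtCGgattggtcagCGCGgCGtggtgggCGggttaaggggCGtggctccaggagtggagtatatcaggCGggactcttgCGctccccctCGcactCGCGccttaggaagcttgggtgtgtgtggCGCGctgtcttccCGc
The Fabp7 window held 6 CG dinucleotides, the Nes window 18, the Cirbp window 29 and the Prkaca window 31. Windows of other skewed regions held fewer, with 22 at Unc119 and 18 at Nphp4, both skewed to H3K14ac.

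Most of the regions contained a gene start. Of the 11012 regions, 7822 (71.0%) spanned at least 1 start, 1844 (16.7%) lay downstream of the nearest start, by the strand of its gene, and 1346 (12.2%) lay upstream of it. The spanning regions nearly always overlapped a CpG region of the table, in 6993 cases (89.4%), whereas 524 downstream regions (28.4%) and 310 upstream regions (23.0%) did. The flanking regions had a median distance of 4662 bases to the start when downstream and 5011 bases when upstream. The table marks the 5% of genes with highest expression as Top, the 5% with lowest expression as Bottom and the remainder as Other, without stating the expression data behind the marks. A region of this kind held the start of 39 of 990 autosomal Bottom genes (3.94%), 8161 of 17923 Other genes (45.5%) and 768 of 990 Top genes (77.6%). Position, CpG overlap and expression were thus entangled among the regions, and the comparisons below are given within each of them as well as pooled.

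Both KAT7 and H3K14ac were higher in regions that spanned a start than in those beside it, by a few percent. KAT7 was 0.471 (0.470 to 0.472) in spanning regions, 0.444 (0.442 to 0.447) in downstream regions and 0.428 (0.425 to 0.430) in upstream regions. H3K14ac was 0.451 (0.450 to 0.452), 0.433 (0.431 to 0.435) and 0.421 (0.418 to 0.423) in the same order. Spanning regions exceeded upstream regions by a factor of 1.10 (1.09 to 1.11) for KAT7, on 19 of 19 autosomes, and of 1.07 (1.06 to 1.08) for H3K14ac, on 18 of 19. Downstream regions exceeded upstream regions by only 1.04 (1.03 to 1.05) for KAT7, on 15 autosomes, and 1.03 (1.02 to 1.04) for H3K14ac, on 13. The autosomes share the same libraries and are no replicates, and their counts show only how evenly a difference was spread over the genome. For scale, gene bodies that shared no base with another had 0.393 (0.392 to 0.393) in KAT7 and 0.385 (0.385 to 0.385) in H3K14ac, and the first set of domains in the table named for H3K9me3, a mark of silent chromatin, had 0.380 (0.380 to 0.381) and 0.377 (0.377 to 0.377). All 3 position classes lay above these levels in both columns. The sets differ in length, with a median of 1318 bases for the regions, 18596 for the gene bodies and 12001 for the domains. Upstream regions over 3000 bases, with a median of 3606, had 0.422 (0.416 to 0.427) in KAT7 and 0.414 (0.408 to 0.419) in H3K14ac. Spanning and downstream regions over 3000 bases had more in both columns. Reads that only reach over an edge count in full, and the part of length in these differences was not tested. How much of each level is background was not measured.

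Pooled over all overlapping regions, CpG overlap accompanied higher values at the start, but not upstream of it. In spanning regions, KAT7 was 0.476 (0.474 to 0.477) with CpG overlap and 0.435 (0.432 to 0.438) without, a factor of 1.09 (1.09 to 1.10), and H3K14ac was 0.454 (0.453 to 0.455) and 0.419 (0.416 to 0.422), also a factor of 1.09 (1.08 to 1.09). In downstream regions the antibodies parted, with a factor of 1.07 (1.06 to 1.08) for KAT7 and 1.02 (1.01 to 1.03) for H3K14ac. In upstream regions KAT7 did not differ beyond counting error, at 0.432 (0.427 to 0.437) with overlap and 0.426 (0.424 to 0.429) without, a factor of 1.01 (0.999 to 1.03). H3K14ac was lower there in the overlapping regions, at 0.398 (0.394 to 0.403) against 0.429 (0.426 to 0.432), a factor of 0.929 (0.917 to 0.941), and was higher with overlap on only 3 of 19 autosomes. The upstream CpG-overlapping regions had the lowest H3K14ac level of the 6 combinations of position and overlap. By the share of an upstream region's bases that CpG regions covered, H3K14ac was 0.390 (0.384 to 0.396) up to 25%, 0.404 (0.395 to 0.414) at 25 to 50%, 0.427 (0.415 to 0.441) at 50 to 75% and 0.387 (0.371 to 0.403) above 75%. The step of 50 to 75%, with 57 regions, could not be told from upstream regions without overlap, and the other 3 lay below them. KAT7 over the same steps was 0.410 (0.404 to 0.417), 0.456 (0.446 to 0.466), 0.465 (0.452 to 0.480) and 0.446 (0.428 to 0.464). Its first step lay below upstream regions without overlap, and those at 25 to 50% and 50 to 75% lay above them. The last could not be told apart from them. The pooled KAT7 level thus joined lower and higher steps.

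**Figure D1:**
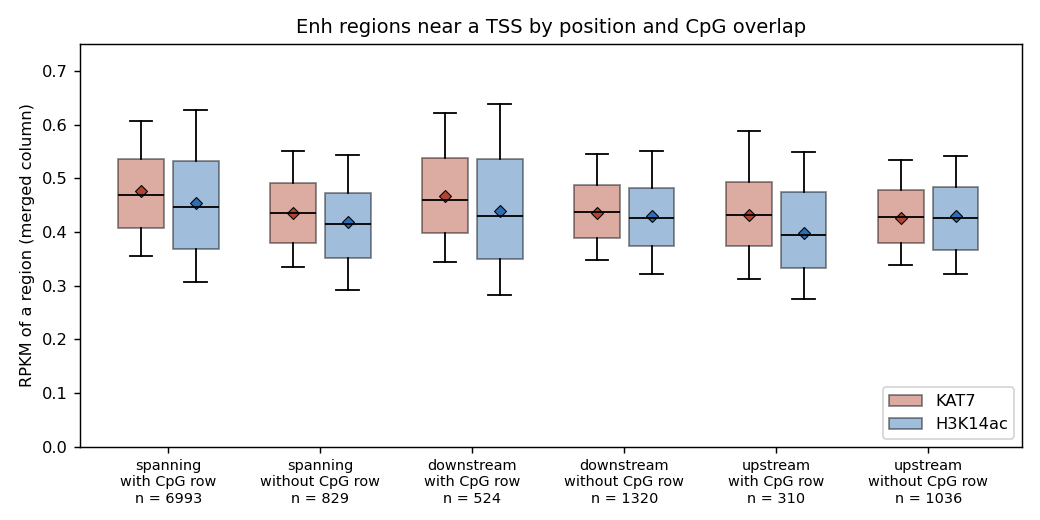
RPKM of single regions in the merged KAT7 and H3K14ac columns (vertical axis) for the 6 combinations of position and CpG overlap. Boxes show the quartiles, whiskers the 10th and 90th percentiles, and diamonds the summed level; the H3K14ac diamond of upstream regions with a CpG row, at 0.398, is the lowest.

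The difference between positions also depended on CpG overlap. With CpG overlap, downstream regions exceeded upstream regions by 1.08 (1.07 to 1.10) for KAT7 and 1.10 (1.08 to 1.12) for H3K14ac, and spanning regions exceeded upstream regions by 1.10 (1.09 to 1.11) and 1.14 (1.13 to 1.15). Without it, downstream over upstream was 1.02 (1.01 to 1.03) for KAT7 and 1.00 (0.995 to 1.01) for H3K14ac. Spanning regions without CpG overlap even had less H3K14ac than upstream regions without it, a factor of 0.976 (0.967 to 0.986), while KAT7 was 1.02 (1.01 to 1.03) times as high. Without overlap, KAT7 was 0.435 (0.432 to 0.438) in spanning and 0.436 (0.434 to 0.438) in downstream regions, which could not be told apart. The pooled order of spanning, downstream and upstream regions was thus seen with CpG overlap and not without it, in both columns.

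Placement of the start within a region was followed more closely in the 6697 regions that held exactly 1 start. Where CpG overlap was present, levels were lower in regions that lay mostly upstream of their start than in those that lay mostly downstream of it. KAT7 was 0.427 (0.420 to 0.434) where 0 to 20% lay downstream, 0.447 (0.444 to 0.450) at 20 to 40%, 0.473 (0.472 to 0.475) at 40 to 60%, 0.484 (0.482 to 0.486) at 60 to 80% and 0.481 (0.478 to 0.485) at 80 to 100%. H3K14ac was 0.410 (0.404 to 0.417), 0.434 (0.432 to 0.437), 0.452 (0.451 to 0.454), 0.456 (0.454 to 0.458) and 0.457 (0.454 to 0.461) over the same steps. Both columns thus had most of their increase by 60%, and the last step over the first was a factor of 1.13 (1.11 to 1.15) for KAT7 and 1.11 (1.09 to 1.13) for H3K14ac. Without CpG overlap the same comparison gave 1.04 (1.01 to 1.08) for KAT7 and 0.920 (0.894 to 0.947) for H3K14ac, the opposite direction, from 96 and 54 regions. In medians of single regions the H3K14ac factor was 0.971, nearer to 1.

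Beside the start, both columns were highest in the first bin of distance downstream. Regions whose edge lay 1 to 500 bases downstream reached 0.487 (0.480 to 0.493) in KAT7 and 0.474 (0.468 to 0.481) in H3K14ac, in 282 regions. The regions 1001 to 2000 bases downstream had the lowest downstream levels, 0.427 (0.419 to 0.435) and 0.398 (0.391 to 0.406), and those at 8001 to 12000 bases had 0.435 (0.431 to 0.439) and 0.431 (0.427 to 0.435). CpG overlap differed between the bins too, with 229 of 282 regions in the first and 33 of 126 at 1001 to 2000 bases. Without CpG overlap the first bin, with 53 regions, had 0.473 (0.459 to 0.487) and 0.452 (0.439 to 0.465), against 0.417 (0.408 to 0.426) and 0.402 (0.394 to 0.411) at 1001 to 2000 bases. At 501 to 1000 bases such regions had 0.433 (0.418 to 0.449) and 0.460 (0.445 to 0.476), so that H3K14ac was not highest in the first bin there. The median length was 985 bases in the whole first bin and 1267 at 1001 to 2000 bases. Upstream, the regions at 1 to 500 bases had 0.436 (0.427 to 0.445) and 0.421 (0.412 to 0.430), and those at 8001 to 12000 bases had 0.424 (0.419 to 0.429) and 0.426 (0.421 to 0.431), so that the upstream side was nearly level. Within 1000 bases, downstream exceeded upstream by 1.10 (1.07 to 1.12) for KAT7 and 1.12 (1.09 to 1.14) for H3K14ac. Beyond 1000 bases the factors were 1.03 (1.02 to 1.04) and 1.01 (1.00 to 1.02).

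**Figure D2:**
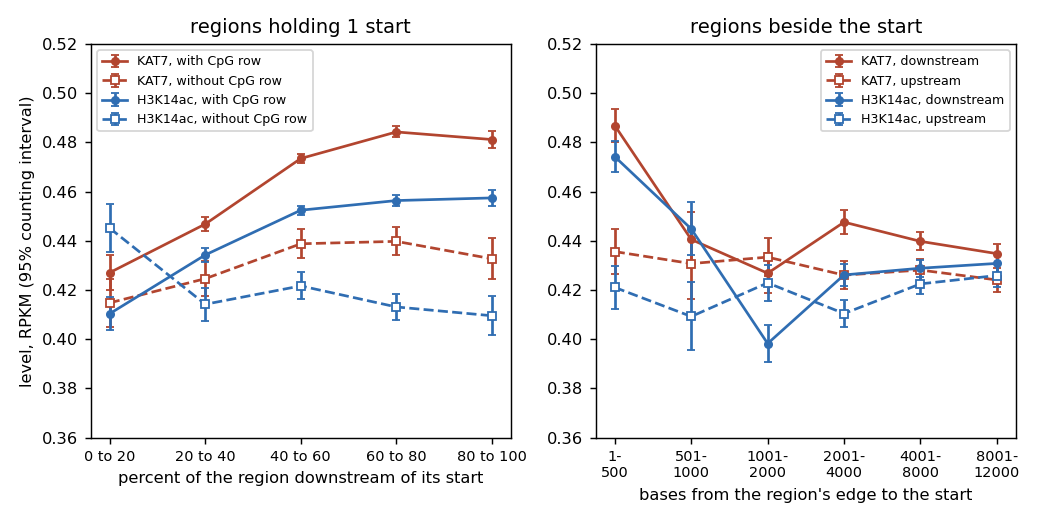
Summed level in RPKM (vertical axis, not from 0) with 95% counting intervals. Left, regions holding 1 start by the percent of the region downstream of it, where the KAT7 line with a CpG row stands at 0.427 in the first step and 0.484 in the fourth; right, regions beside the start by the distance of their nearer edge, where both downstream lines are highest in the first bin.

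Gene by gene, in the 236 genes with a region on both sides of the start, neither side was regularly higher. The median ratio of the downstream to the upstream value was 1.02 for KAT7 (quartiles 0.865 and 1.21) and 1.03 for H3K14ac (quartiles 0.837 and 1.23), and 122 genes lay above 1 and 114 below it in each column. Single genes spread far more than the classes did. Counting error is part of that spread, as the median downstream region held 76 KAT7 reads and the median upstream region 69. Its share in these ratios was not computed. The rule for named genes took the 5 highest and 5 lowest KAT7 ratios by interval bound, so these are picked extremes whose size is overstated. Id3, which encodes an inhibitor of basic helix-loop-helix factors, had 0.934 downstream and 0.459 upstream for KAT7, a ratio of 2.04 (1.71 to 2.42), and an H3K14ac ratio of 1.44 (1.18 to 1.74). Hes1, a transcriptional repressor that Notch signalling induces, had 0.655 and 0.398, a ratio of 1.64 (1.30 to 2.10), and an H3K14ac ratio of 1.18 (0.944 to 1.49). The other high pairs were Rnaseh2b, a subunit of ribonuclease H2, with 2.36 (1.36 to 4.33), Ccdc167 with 1.95 (1.42 to 2.72) and the ribosomal protein gene Rps14 with 1.79 (1.26 to 2.54). Of these 5 genes, only Id3 had an H3K14ac interval above 1.

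At the low end, Adra2c, which encodes an adrenergic receptor, had a KAT7 ratio of 0.424 (0.245 to 0.706), with H3K14ac at 0.955 (0.608 to 1.49). Lhx8, a LIM homeobox gene of the ventral forebrain, had 0.529 downstream and 1.05 upstream for KAT7, a ratio of 0.502 (0.353 to 0.727). Cxcr4, the receptor of the chemokine CXCL12, had 0.553 (0.372 to 0.833) in KAT7 and 1.15 (0.730 to 1.86) in H3K14ac. The mitochondrial carrier gene Ucp2 had a KAT7 ratio of 0.509 (0.341 to 0.766) and 4930405A21Rik one of 0.674 (0.515 to 0.879). The H3K14ac interval of all 5 low pairs included 1. At Nes, the flanking regions went in opposite directions, with a downstream to upstream ratio of 0.761 (0.587 to 0.985) for KAT7 and 1.39 (1.10 to 1.77) for H3K14ac.

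Pooled, regions at more highly expressed genes had more of both, and H3K14ac separated the classes more widely than KAT7. That wider separation was not seen in downstream regions or in regions without CpG overlap. KAT7 was 0.394 (0.387 to 0.401) at Bottom genes (117 regions), 0.458 (0.457 to 0.459) at Other genes (10044 regions) and 0.515 (0.512 to 0.518) at Top genes (851 regions). H3K14ac was 0.374 (0.367 to 0.380), 0.438 (0.438 to 0.439) and 0.521 (0.518 to 0.524). Top exceeded Bottom by 1.31 (1.28 to 1.33) for KAT7 and 1.39 (1.37 to 1.42) for H3K14ac, and did so on all 18 autosomes that had both classes. The factor was largest in spanning regions, at 1.39 (1.35 to 1.44) and 1.53 (1.48 to 1.57). In downstream regions it was 1.17 (1.13 to 1.22) for KAT7 and 1.17 (1.13 to 1.21) for H3K14ac. In upstream regions Top over Bottom was 1.07 (1.03 to 1.12) and 1.18 (1.13 to 1.23), and Top could not be told from Other for KAT7, at 0.998 (0.973 to 1.02). The Bottom class held only 33 spanning, 43 downstream and 41 upstream regions. In medians of single regions, Top over Bottom was 1.33 for KAT7 and 1.39 for H3K14ac in spanning regions. It was 1.15 and 1.07 in downstream and 1.06 and 1.16 in upstream regions. CpG overlap mattered here as well. With it, Top over Bottom was 1.35 (1.31 to 1.38) for KAT7 and 1.54 (1.49 to 1.58) for H3K14ac, and without it 1.16 (1.12 to 1.19) and 1.15 (1.12 to 1.18).

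**Figure D3:**
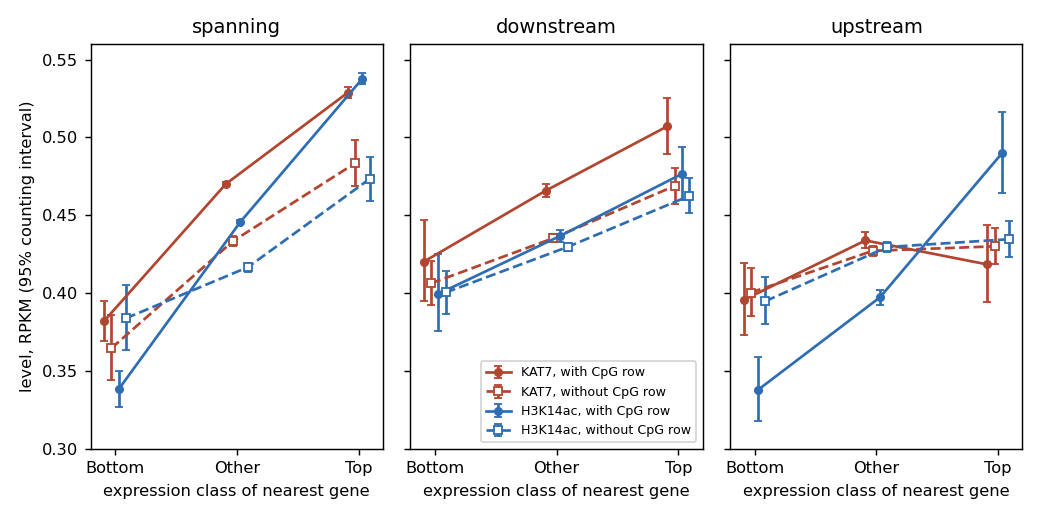
Summed level in RPKM (vertical axis, not from 0) with 95% counting intervals by the expression class of the nearest gene, for each position. The solid lines of regions with a CpG row are steepest in the spanning panel, where H3K14ac was 0.338 at Bottom, 0.446 at Other and 0.538 at Top genes.

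The ratio of KAT7 to H3K14ac was lower at Top than at Bottom genes in spanning and upstream regions with CpG overlap. A ratio of 1 means equal scaled reads and does not mean equal occupancy and acetylation, since the antibodies share no scale. In CpG-overlapping spanning regions it was 1.13 (1.08 to 1.18) at Bottom genes (18 regions), 1.05 (1.05 to 1.06) at Other genes (6327 regions) and 0.983 (0.974 to 0.993) at Top genes (648 regions). CpG-overlapping upstream regions had the same order, with 1.17 (1.08 to 1.27) in 12 Bottom regions, 1.09 (1.07 to 1.11) in 287 Other regions and 0.854 (0.789 to 0.925) in 11 Top regions. Their KAT7 level did not follow the classes, at 0.396 (0.373 to 0.419), 0.434 (0.429 to 0.439) and 0.418 (0.394 to 0.444), whereas H3K14ac was 0.338 (0.318 to 0.359), 0.397 (0.393 to 0.402) and 0.490 (0.464 to 0.516). In downstream regions, and in all 3 position classes without CpG overlap, the intervals of the Bottom and Top ratios overlapped.

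**Figure D4:**
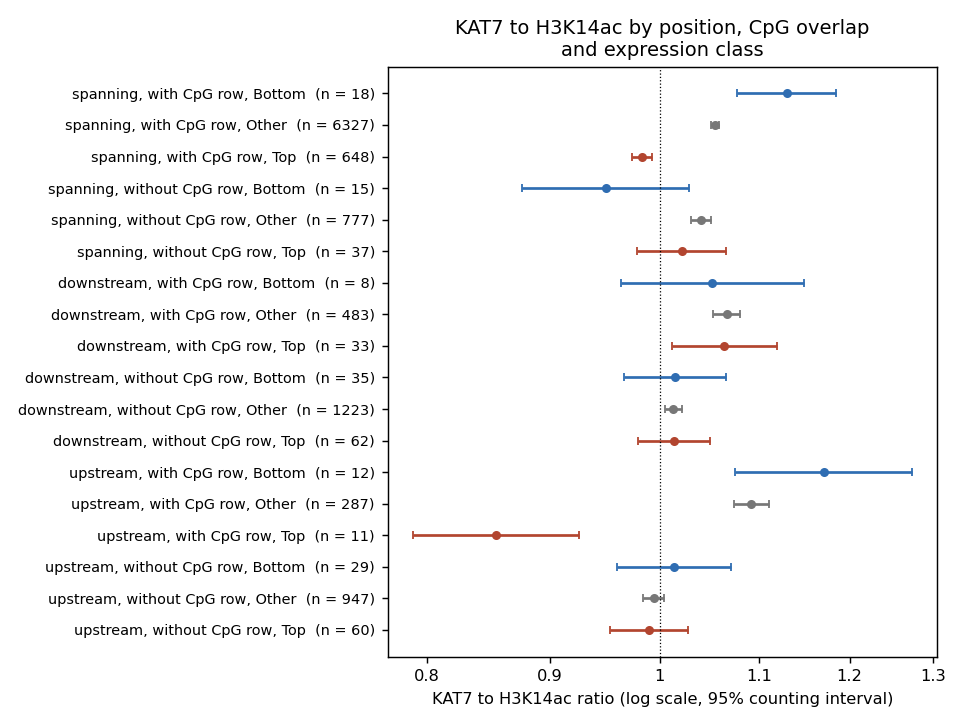
Ratio of the summed KAT7 level to the summed H3K14ac level (horizontal axis, log scale) with its 95% counting interval, for each combination of position, CpG overlap and expression class. In spanning and upstream regions with a CpG row the Top point lies left of the Bottom point.

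Region by region the columns were moderately alike. The coefficient of variation across regions was 23.3% for KAT7, where counting error alone would give 11.4%, and 28.6% for H3K14ac, where counting alone would give 11.3%. In terms of variance, 75.9% for KAT7 and 84.3% for H3K14ac lay beyond counting error. The median region held 82 KAT7 reads and 83 H3K14ac reads. Spearman's rho between the columns was 0.468 across 11012 regions and 0.629 across the 3268 regions with at least 100 reads in each column, as a description of regions that share libraries and base composition. It was 0.497 in spanning, 0.416 in downstream and 0.279 in upstream regions. A ratio of KAT7 to H3K14ac of 1.5 or more was found in 873 regions (7.93%), against 7.55% of all 138655 regions of the table longer than 160 bases. A ratio of 0.667 or less was found in 369 regions (3.35%), against 4.69% in the table. Both shares lay near those of the whole table, of which these regions are a part.

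Genes of neural stem cells were followed with a list of 9. Merged ChIP levels cannot check the cell type and are given as levels alone. A region spanned the start of 7 of them, and 6 of the 7 lay above the median of all spanning regions in each column (medians 0.584 against 0.464 for KAT7 and 0.514 against 0.442 for H3K14ac). Nes (gene 18008, region chr3:87970695-87975144) reached 1.37 (1.27 to 1.46) in KAT7 and 1.27 (1.18 to 1.36) in H3K14ac. Any Nes sequence that the NesCre transgene carries would add reads here, and the origin of such reads cannot be told apart. Sox2, an HMG-box factor that maintains neural stem cells, had a region of 24107 bases (chr3:34647962-34672068) with 0.645 (0.618 to 0.674) and 0.537 (0.513 to 0.563), a ratio of 1.20 (1.13 to 1.28). Sox9, a factor of glial and stem cell identity, had 0.584 (0.525 to 0.647) and 0.467 (0.416 to 0.522), and Vim, the intermediate filament vimentin, 0.578 (0.520 to 0.640) and 0.482 (0.431 to 0.538). These regions leaned to KAT7. Fabp7 (chr10:57783300-57786538), whose promoter is printed above, leaned the other way with 0.481 (0.418 to 0.551) and 0.601 (0.533 to 0.677). Hes5, another Notch effector, had the lowest KAT7 of the list, 0.437 (0.392 to 0.487), in a region that spans its start, with 0.360 (0.320 to 0.404) for H3K14ac.

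Other lineages were represented by few regions. Of 5 genes of the oligodendrocyte lineage only Olig2, a transcription factor of ventral progenitors, had a region over its start (chr16:91224981-91225976), with 0.704 (0.569 to 0.862) for KAT7 and 0.681 (0.551 to 0.831) for H3K14ac. The neuronal genes Tubb3, Rbfox3 and Map2 had such regions, and 0 of the 3 lay above the median of spanning regions in either column. Tubb3, which encodes a tubulin of neurons, had 0.365 (0.321 to 0.414) and 0.320 (0.280 to 0.364). No region spanned the start of the 3 astrocyte, 3 microglial or 3 endothelial genes of the lists. The lists are short and were chosen with earlier values known, so their counts describe these genes alone.

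Among regulators of growth, Spry2, a feedback inhibitor of receptor tyrosine kinases, had 0.782 (0.710 to 0.859) in KAT7 and 0.753 (0.685 to 0.827) in H3K14ac. Ccnd1, cyclin D1 (chr7:144939066-144942495), was skewed to H3K14ac, with 0.491 (0.429 to 0.560) and 0.829 (0.750 to 0.914), a ratio of 0.593 (0.501 to 0.699). Ccnd2, its relative, was even, with 0.514 (0.458 to 0.574) and 0.535 (0.481 to 0.595). Notch1, the receptor gene, had 0.515 (0.481 to 0.551) and 0.492 (0.460 to 0.526) over 12328 bases. Emx2, a homeobox gene of cortical patterning, had more KAT7, 0.536 (0.503 to 0.570), than H3K14ac, 0.406 (0.378 to 0.435). The housekeeping genes Actb and Gapdh had 0.616 (0.548 to 0.690) and 0.644 (0.571 to 0.724) for KAT7, and 0.723 (0.651 to 0.800) and 0.666 (0.593 to 0.744) for H3K14ac.

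Among genes of the acetyltransferase complex, the ratio of KAT7 to H3K14ac could be told from 1 at Brpf1 but not at Kat7, Meaf6 or Jade1. Kat7 itself (gene 217127, chr11:95309112-95311028) had 0.424 (0.348 to 0.512) in KAT7 and 0.527 (0.444 to 0.620) in H3K14ac, and its interval of the ratio included 1 (0.622 to 1.04). Brpf1, a scaffold subunit, had 0.381 (0.304 to 0.472) and 0.605 (0.510 to 0.714), a ratio of 0.630 (0.475 to 0.831). Meaf6 had 0.491 (0.405 to 0.591) and 0.407 (0.331 to 0.496), a ratio of 1.21 (0.913 to 1.60). The region of Jade1, 7519 bases downstream of its start, had 0.385 (0.329 to 0.449) and 0.439 (0.379 to 0.504), a ratio of 0.879 (0.710 to 1.09).

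The highest levels in both columns were at Pisd-ps2, a pseudogene, with 3.80 (3.51 to 4.12) for KAT7 and 3.63 (3.35 to 3.93) for H3K14ac, and at Hjurp, which encodes a chaperone of the centromeric histone, with 2.33 (2.09 to 2.59) and 2.41 (2.18 to 2.67). Whether either region shares sequence with copies elsewhere in the genome was not tested, so both values are uncertain. Nes came next by lower bound in both columns. Rfx4, a winged-helix factor gene, had a downstream region at 3705 bases with 1.23 (1.05 to 1.43) for KAT7 and 0.559 (0.441 to 0.699) for H3K14ac, and Fam181b had 1.02 (0.897 to 1.15) and 0.838 (0.731 to 0.956). Among the highest H3K14ac values, Phlda3, a p53 target, had KAT7 at 0.848 (0.700 to 1.02) and H3K14ac at 1.31 (1.13 to 1.51), and Rmi1, a subunit of the BLM helicase complex, 0.635 (0.544 to 0.738) and 1.23 (1.11 to 1.37).

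Skewed regions were ranked by their interval, and these too are picked extremes. Jmjd1c, of the JmjC demethylase family (chr10:67126536-67127529), had 1.01 (0.850 to 1.20) in KAT7 and 0.249 (0.173 to 0.346) in H3K14ac, a ratio of 4.08 (2.79 to 6.09). Prkaca (chr8:83972208-83973303) had 50 KAT7 reads and 12 H3K14ac reads, which give 0.340 (0.253 to 0.449) and 0.0773 (0.0400 to 0.135) and a ratio of 4.40 (2.31 to 9.08). KAT7 at Prkaca was thus below the median of spanning regions, and the ratio came from a very low H3K14ac value. Wdr41, Thap4 and Rbm15b followed with ratios of 3.88 (2.16 to 7.39), 3.31 (2.19 to 5.13) and 3.07 (2.23 to 4.28). At the other end, Cirbp (chr10:80167009-80169128) had 0.267 (0.211 to 0.335) in KAT7 and 0.782 (0.686 to 0.889) in H3K14ac, a ratio of 0.342 (0.260 to 0.444). Unc119, which encodes a chaperone of lipid-modified proteins, had 0.346 (0.233 to 0.503), Nphp4, a gene of the ciliary transition zone, 0.325 (0.187 to 0.544), gene 69595 0.487 (0.398 to 0.594), and the downstream region of the dynein light chain gene Dynll2 0.460 (0.371 to 0.568). All 5 of the KAT7-skewed regions and 4 of the 5 H3K14ac-skewed ones spanned a start.

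**Figure D5:**
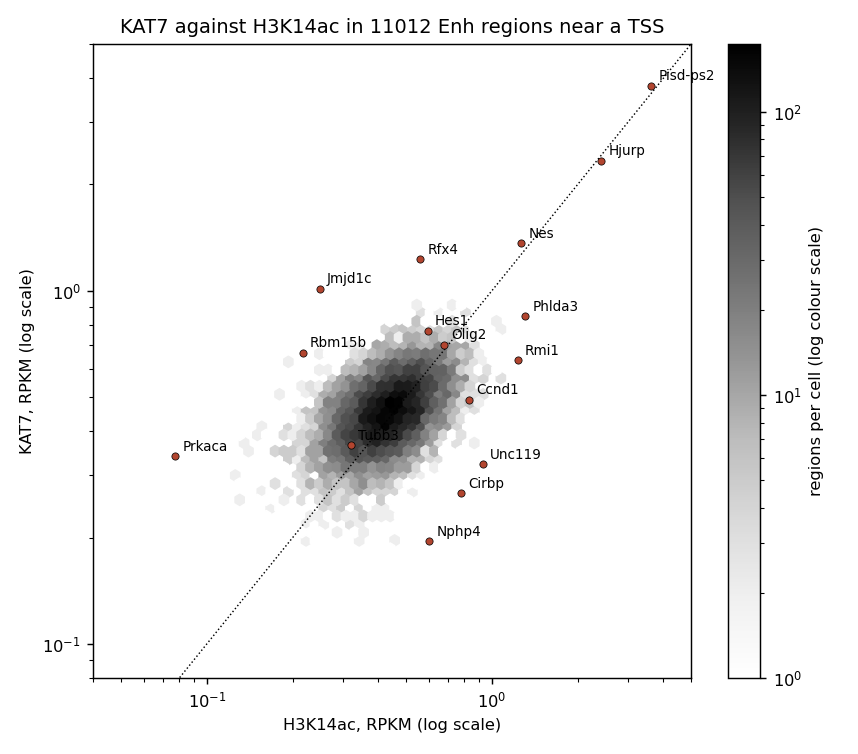
KAT7 against H3K14ac RPKM of the 11012 regions (both axes log), as hexagonal cells shaded by the number of regions, with named regions as red points and the line of equality dotted. Nes lies near the line at 1.37 and 1.27, whereas Jmjd1c and Prkaca lie above the line and Cirbp below it. Prkaca lies at the left, with KAT7 at 0.340 and H3K14ac at 0.0773.

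Promoter sequence was compared in the spanning regions that hold 1 start. For 4193 of 6697, a RefSeq window had its start within 50 bases of the start in the table and lay inside the region. The median window held 25 CG dinucleotides with CpG overlap and 10 without. KAT7 was 0.441 (0.435 to 0.448) with 0 to 5 CG, 0.452 (0.447 to 0.457) with 6 to 10, 0.471 (0.469 to 0.474) with 11 to 20, 0.481 (0.478 to 0.483) with 21 to 30 and 0.465 (0.462 to 0.467) with over 30. H3K14ac was 0.422 (0.416 to 0.429), 0.444 (0.439 to 0.449), 0.446 (0.444 to 0.449), 0.462 (0.460 to 0.465) and 0.438 (0.435 to 0.440). Both columns were highest at 21 to 30 CG in this pooled count. Regions without CpG overlap had no such peak. Over the same steps their KAT7 was 0.444 (0.436 to 0.452), 0.435 (0.428 to 0.443), 0.441 (0.433 to 0.449), 0.437 (0.418 to 0.456) and 0.363 (0.348 to 0.379), and their H3K14ac was 0.431 (0.424 to 0.439), 0.433 (0.426 to 0.440), 0.412 (0.405 to 0.420), 0.378 (0.361 to 0.395) and 0.325 (0.310 to 0.339). The last steps rest on 27 and 23 regions.

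Motifs were searched in the windows as exact letters on both strands. GGGCGG, the GC box, occurred in 71.3% of the 4193 windows and in 35.7% of all 32851 RefSeq promoter windows. CCGGAAG, a core that ETS factors bind, occurred in 19.6% and 8.86%, the NRF1 motif in 13.1% and 4.60%, TGACGTCA, the cyclic AMP response element, in 3.94% and 1.79%, and CACGTG, an E-box, in 9.90% and 7.15%. CCAAT was near the share of all promoters, 38.2% and 37.4%, and TATAAA was rarer, 5.58% and 13.6%. Levels differed little by motif. Regions with CCGGAAG had 1.05 (1.04 to 1.06) times the KAT7 and 1.07 (1.07 to 1.08) times the H3K14ac of those without it, and regions with TGACGTCA had 1.06 (1.04 to 1.08) and 1.07 (1.05 to 1.08) times. With GGGCGG the factors were 0.988 (0.982 to 0.995) and 0.975 (0.969 to 0.982). Of the printed promoters, Nes held 2 matches of GGGCGG, Fabp7 2 of CCAAT, Cirbp 3 of GGGCGG and 2 of CCAAT, and Prkaca 3 of GGGCGG, 4 of CCAAT and 1 of CACGTG. A match describes letters only, and CG-rich motifs are more frequent in CG-rich windows.

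Islands and the bases around them could be set apart in 5152 spanning regions that contained 1 whole CpG region. The island had 1.13 (1.12 to 1.14) times the KAT7 and 1.16 (1.15 to 1.16) times the H3K14ac of the remainder of the same region. Reads that only reach over an edge count in full, and with 75 bases added to the island's length the factors were 0.945 (0.940 to 0.950) and 0.967 (0.962 to 0.973), the opposite direction. The direction of this comparison thus depended on how reads at the edges were treated.

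Compared with their nearest relatives, the regions had more KAT7 than the 10785 Enh regions far from a TSS, by a factor of 1.08 (1.08 to 1.09), and more H3K14ac by 1.04 (1.04 to 1.04), on 19 of 19 autosomes for both. The excess was larger with CpG overlap, at 1.08 (1.08 to 1.09) and 1.09 (1.08 to 1.10) against far Enh regions with such overlap. Without overlap, near over far was 1.02 (1.01 to 1.02) for KAT7 and 0.997 (0.993 to 1.00) for H3K14ac. Upstream regions were level with far ones in KAT7, at 1.00 (0.997 to 1.01), and slightly lower in H3K14ac, at 0.986 (0.980 to 0.992). Ratios of KAT7 to H3K14ac of 1.5 or more were found in 7.93% of the near and 3.39% of the far regions, against 7.55% of the table, and ratios of 0.667 or less in 3.35% and 2.81%, against 4.69% of the table. Against the 12881 CpG regions near a TSS the levels were lower, by factors of 0.928 (0.925 to 0.931) for KAT7 and 0.942 (0.939 to 0.945) for H3K14ac, and of 0.955 and 0.981 within bands of length. Regions that held 2 or more starts exceeded those with 1 by 1.05 (1.05 to 1.06) for KAT7 and 1.06 (1.06 to 1.07) for H3K14ac, on 15 of 19 autosomes for both. Among regions with CpG overlap the factors were 1.04 (1.04 to 1.05) and 1.05 (1.05 to 1.06).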

How the data were processed

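KAT7 and H3K14ac ChIP-seq reads in regions of the mouse genome were taken from the authors' deposited table. Per the file headers, it gives a read count and an RPKM value for each region and each merged column. Each deposited RPKM is that count over length (end minus start) and a column total, 134111848 reads for KAT7 and 141734087 for H3K14ac, in 100% of regions with reads (relative tolerance 1e-06). Per the submitters' processing notes the build was mm10 and the tools were Bowtie2, SAMtools, Picard, deepTools and featureCounts. The sources used here give no roles or versions for them.

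Regions with a mean RPKM below 0.1 or a value above 5 in either column were set aside. The level of a group was its summed count over summed length and column total, with an exact Poisson 95% interval. Ratios carry exact binomial 95% intervals. No test was run, since each antibody has 1 merged column. A region spanned, followed or preceded the nearest gene body start by strand. CpG overlap needed 1 shared base. Position, CpG overlap and expression ratios were recomputed under the alternatives given in the closing section. Calculations used Python 3.11.15, pandas 2.3.3, numpy 2.4.6, SciPy 1.17.1 and matplotlib 3.10.9, and were tested on simulated data. Symbols and promoters came from RefSeq (GRCm38.p6, the same build), and 97.9% of regions had a symbol for their nearest gene.

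The class of regions to describe and the gene lists were chosen with earlier results of these data known, although the rule that takes single regions uses no read value. Named genes were 30 genes given where a region had them as nearest gene or held their start. Among regions of at least 300 bases they were the 5 with the highest lower bound or lowest upper bound of the ratio, and the 5 with the highest lower bound of each level. Among pairs they were the 5 highest and 5 lowest KAT7 ratios by bound. The 4 printed promoters were picked from these after their values were seen. Of the genes the rule names, 1 is not reported here.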

Additional observations from a re-analysis of the deposited data

How the results depend on the processing

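The ratios of downstream over upstream, spanning over upstream, CpG overlap over none and Top over Bottom, in each column, kept their direction under all 78 alternatives run, and 47 of these stayed inside the interval of the reported ratio. The largest shift was by a factor of 1.09. The others moved outside it as follows, KAT7 before H3K14ac. Medians of regions gave 1.02 for downstream over upstream in H3K14ac, 1.08 and 1.06 for spanning over upstream, 1.07 and 1.05 for CpG overlap and 1.22 and 1.32 for Top over Bottom. Regions within 1000 bases gave 1.10 and 1.12, 1.09 and 1.08, 1.09 and 1.08, and 1.38 and 1.503 in the same order of comparisons. Adding 75 bases to each length gave 1.11 and 1.08 for spanning over upstream. Spanning over upstream was 1.05 and 1.04 over CpG overlap, CpG overlap was 1.07 and 1.06 when at least 50% was asked, and Top over Bottom was 1.24 and 1.32 over position and CpG overlap. Without regions that have a second start within 1000 bases, H3K14ac gave 1.06 for spanning over upstream and 1.05 for CpG overlap. After seeing the data, 2 alternatives were added: regions numbered above 20000 gave 1.05 and 1.05 for downstream over upstream and 1.09 and 1.09 for spanning over upstream, and CpG overlap over the 3 positions gave 1.07 and 1.04. The cause of these shifts was not tested. Some alternatives could change little, since dropping the filter on values restores only 2 regions. The 78 did not include ratios within 1 class of CpG overlap or position, where H3K14ac did reverse. Spanning over upstream was 0.976 without CpG overlap, and CpG overlap over none was 0.929 in upstream regions.

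No paired analysis was possible because only merged columns were used, so leaving out replicates was not run either. Counting intervals are narrow for classes and wide for single regions, of which the median holds 82 KAT7 and 83 H3K14ac reads. Differences of a few percent between classes are larger than counting error, and their spread between isolates is unknown.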

Other observations

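The numbering of Enh regions in the table changes character at 20000. Of the 20000 regions numbered up to there 15.8% are named near a TSS, and of the 15713 numbered above it 85.4% are. The 1863 regions described here from the lower numbers comprise 77 spanning, 957 downstream and 829 upstream regions, and the 9149 from the higher numbers 7745, 887 and 517. More than 1000 bases from the start, regions with higher numbers differed from those with lower ones in opposite directions by antibody. Downstream the factor was 1.02 (1.01 to 1.03) for KAT7 and 0.983 (0.973 to 0.993) for H3K14ac, and upstream it was 1.02 (1.01 to 1.04) and 0.968 (0.956 to 0.981). CpG overlap was also more frequent in the higher numbers, 30.3% against 9.91% downstream and 38.9% against 9.89% upstream, and its part in these factors was not tested.

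Among spanning regions numbered above 20000, length and the share at Top genes declined steadily along the numbering, and the levels were highest in the first step and lowest in the last. By 4 equal steps of the numbering, low to high, KAT7 was 0.478, 0.468, 0.471 and 0.461, and H3K14ac was 0.462, 0.445, 0.447 and 0.435. The share of regions at Top genes was 13.2%, 9.45%, 6.77% and 5.99%, and the median length was 2061, 1460.5, 1191.5 and 1000.5 bases. What ordered the numbering is not given in the sources used here.

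On X and Y, the 293 regions that met the name and length rules had 0.233 (0.230 to 0.237) in KAT7 and 0.231 (0.227 to 0.234) in H3K14ac.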
